A study of Mus musculus with 8 samples.

Results

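The genes described here are 10 members of the tumour necrosis factor (TNF) superfamily and its receptors, the ligands Tnf, Tnfsf10, Tnfsf12, Tnfsf13b and Tnfsf14 and the receptors Tnfrsf1a, Tnfrsf1b, Tnfrsf14, Tnfrsf21 and Fas, measured in 2 subsets of mouse monocytes. They were chosen by name, as every probe set of the array whose annotation gives exactly 1 of these symbols. This gave 16 of 45037 probe sets, for 9 of the 10 genes. Tnfsf12 had no probe set of its own and is covered through 2 probe sets annotated jointly with its neighbour genes. The samples were Gr1lo (Ly-6clo) and Gr1hi (Ly-6chi) monocytes sorted from 12-week-old C57Bl/6 mice, with no treatment or engineered allele named in either group. Each group had 4 arrays, 1 for each of 4 sorts, and each sort drew on leukocytes pooled from 5 mice, so an array shows a pool and not a single animal. Values are probe set intensities on Affymetrix 3' expression arrays, compared on the log2 scale. Differences are Gr1lo minus Gr1hi, and a call means that limma's p, adjusted by Benjamini-Hochberg over all 22831 tested probe sets, was under 0.05.

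Ligands of the TNF superfamily are made mostly as membrane proteins that assemble in trimers and can be shed, and their receptors carry cysteine-rich repeats outside the cell. Fas, Tnfrsf1a and Tnfrsf21 have a death domain inside the cell, through which receptors of this kind can start caspase activation or necroptosis, while Tnfrsf1b and Tnfrsf14 bind TRAF adaptors that lead to NF-kB and MAP kinase signals. Blood monocytes are a known source of TNF and carry both of its receptors.

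The subset labels fitted the subset markers, whose lists were chosen with earlier results of these data known. All 8 tested markers of nonclassical monocytes were called higher in Gr1lo cells, and all 5 tested markers of classical monocytes were called higher in Gr1hi cells. The array medians lay between 80.5 and 83 in Gr1lo samples and between 80.5 and 82.4 in Gr1hi samples. Arrays give no read depth, and the number of arrays limits the precision, with a median standard error of 0.08 for a log2 difference.

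The promoters of 4 called members are printed, a ligand and a receptor higher in Gr1lo cells (Tnf and Tnfrsf1b) and a ligand and a receptor higher in Gr1hi cells (Tnfsf14 and Fas), so that the sequence before genes of opposite direction can be set side by side. The sequences are from RefSeq (build GRCm38.p6), 250 bases before to 50 after the annotated start, 5′ to 3′ on the strand of the gene. Capitals mark matches on either strand to 6 motifs, the TATA box (TATAAA), the GC box (GGGCGG), the PU.1 box (GAGGAA), the AP-1 site (TGANTCA), the interferon-stimulated response element and the kB consensus of NF-kB. The matches in these 4 promoters do not overlap each other.
Tnf, chr17:35201958-35202257, minus strand: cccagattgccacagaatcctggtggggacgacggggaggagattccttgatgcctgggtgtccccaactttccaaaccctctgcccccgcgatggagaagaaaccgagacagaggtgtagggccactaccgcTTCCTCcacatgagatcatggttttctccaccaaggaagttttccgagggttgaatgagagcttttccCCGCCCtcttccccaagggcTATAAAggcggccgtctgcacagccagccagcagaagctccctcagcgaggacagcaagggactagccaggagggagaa
Tnfrsf1b, chr4:145246821-145247120, minus strand: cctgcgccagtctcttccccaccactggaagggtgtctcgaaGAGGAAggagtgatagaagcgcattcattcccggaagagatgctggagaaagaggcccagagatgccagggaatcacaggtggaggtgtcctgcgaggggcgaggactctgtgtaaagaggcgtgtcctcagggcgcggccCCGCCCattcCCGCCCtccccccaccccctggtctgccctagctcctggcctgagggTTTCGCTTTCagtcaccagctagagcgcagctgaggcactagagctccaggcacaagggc
Tnfsf14, chr17:57194132-57194431, minus strand: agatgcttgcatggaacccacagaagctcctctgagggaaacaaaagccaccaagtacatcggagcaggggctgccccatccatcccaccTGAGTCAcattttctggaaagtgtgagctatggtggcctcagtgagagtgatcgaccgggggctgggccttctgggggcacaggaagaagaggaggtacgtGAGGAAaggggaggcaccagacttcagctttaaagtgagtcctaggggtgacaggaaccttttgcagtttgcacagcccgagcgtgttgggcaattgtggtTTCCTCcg
Fas, chr19:34290409-34290708, plus strand: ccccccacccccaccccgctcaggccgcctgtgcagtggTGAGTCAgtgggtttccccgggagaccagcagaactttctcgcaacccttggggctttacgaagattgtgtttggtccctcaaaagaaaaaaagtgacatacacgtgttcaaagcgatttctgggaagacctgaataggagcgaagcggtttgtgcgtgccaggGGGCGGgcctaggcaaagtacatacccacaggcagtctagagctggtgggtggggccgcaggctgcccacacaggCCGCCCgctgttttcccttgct
Tnf held a TATA box at -29 to -24, a GC box and a PU.1 box, and it was the one member promoter of 10 (for 9 genes) with a TATA box, which 13.6% of 32851 mouse promoters of this length hold. Tnfrsf1b held an interferon-stimulated response element at -10 to -1, a motif found in 3.44% of all promoters and in 3 of the 10 member promoters. Tnfsf14 and Fas each held an AP-1 site (7.81% of all promoters, and 3 of the 9 genes, Tnfsf13b having 1 site that both of its overlapping windows hold), at -160 to -154 in Tnfsf14 and at -211 to -205 in Fas. The PU.1 box was in 28.3% of all promoters and the GC box in 35.7%, against 4 of the 10 for each. The kB consensus (4.51% of all promoters) was in none of the 10, which says only that these letters are not in this window.

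Among the ligands, Tnf was higher in Gr1lo cells and Tnfsf14 was higher in Gr1hi cells, while Tnfsf13b and Tnfsf10 were not called. Tnf encodes the founding cytokine of the family. Its single probe set gave intensities of 207, 183, 222 and 265 in the Gr1lo arrays, against 143, 151, 143 and 166 in the Gr1hi arrays. The lowest Gr1lo array lay above the highest Gr1hi array, and the Gr1lo arrays spread more widely. Tnf averaged 7.76 ± 0.22 log2 units in Gr1lo cells and 7.23 ± 0.10 in Gr1hi cells (SD, n = 4 each), a difference of 0.53 (SE 0.10, limma adjusted p = 0.0022) or 1.44-fold. In bulk samples such as these, fewer cells that express a gene and less RNA per cell cannot be told apart. Immediate early and heat shock genes, which sorting can induce, were listed after the members' values were seen. Of 8 tested, 3 were called higher in Gr1lo cells and 2 higher in Gr1hi cells, against 14.1% and 18.5% of all tested genes. Jun (3.03-fold), Hspa1b (2.78-fold, with overlapping groups) and Ier2 (1.34-fold) were higher in Gr1lo cells. Fos (4.75-fold) and Atf3 (1.77-fold) were higher in Gr1hi cells. These opposite differences partly offset each other in the list's mean. The mean of that list per array ran from 9.04 to 9.63 in Gr1lo cells and from 8.94 to 9.43 in Gr1hi cells (log2), and its part in the Tnf result was not tested.

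Tnfsf14, known as LIGHT, is a ligand of the receptor Tnfrsf14 and of the lymphotoxin beta receptor. Its first probe set gave intensities of 69.6, 73.7, 63.9 and 67.6 in the Gr1lo arrays, all below the median of the whole table (81.9), against 160, 163, 156 and 140 in the Gr1hi arrays. The groups were clearly apart, and this probe set passed the filter only through its 4 Gr1hi arrays. The measured means were 6.10 ± 0.09 in Gr1lo cells and 7.27 ± 0.10 in Gr1hi cells (log2, SD, n = 4 each, limma adjusted p = 3.0e-07). The second probe set gave 83.8, 85.1, 81.5 and 70.5 in Gr1lo arrays and 113, 131, 132 and 121 in Gr1hi arrays (limma adjusted p = 9.4e-05), with a Gr1lo mean that also lay below the table median. With the table median as a stand-in for background where the dim group lay below it, Tnfsf14 was at least 1.89-fold higher in Gr1hi cells by the first probe set and at least 1.51-fold by the second, so its size cannot be ranked against that of the brighter members.

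Tnfsf13b, or BAFF, is a survival factor for B cells. Its tested probe set gave 245, 269, 308 and 265 in Gr1lo arrays and 283, 257, 229 and 264 in Gr1hi arrays. These values overlap, and the difference of 0.07 had a 95% interval from -0.12 to 0.26 (limma adjusted p = 0.59). Of the other 2 probe sets, neither passed the filter. One of them gave 72.3 to 75.6 in Gr1lo arrays and 80.7 to 86.6 in Gr1hi arrays, which do not overlap but stand around the table median.

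Tnfsf10, or TRAIL, is a ligand of death receptors and a known interferon target. It stood at or below the table median by all 3 probe sets in the Gr1lo cells on average. The tested one gave 77.6, 71.2, 83.7 and 82.8 in Gr1lo arrays and 88.4, 88.8, 81.2 and 95.6 in Gr1hi arrays. The groups overlap, and the difference of -0.17 was not called (95% interval -0.33 to -0.0031, limma adjusted p = 0.12). The other 2 probe sets were below the median in every array and differed by -0.30 and -0.21, untested.

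**Figure D1:**
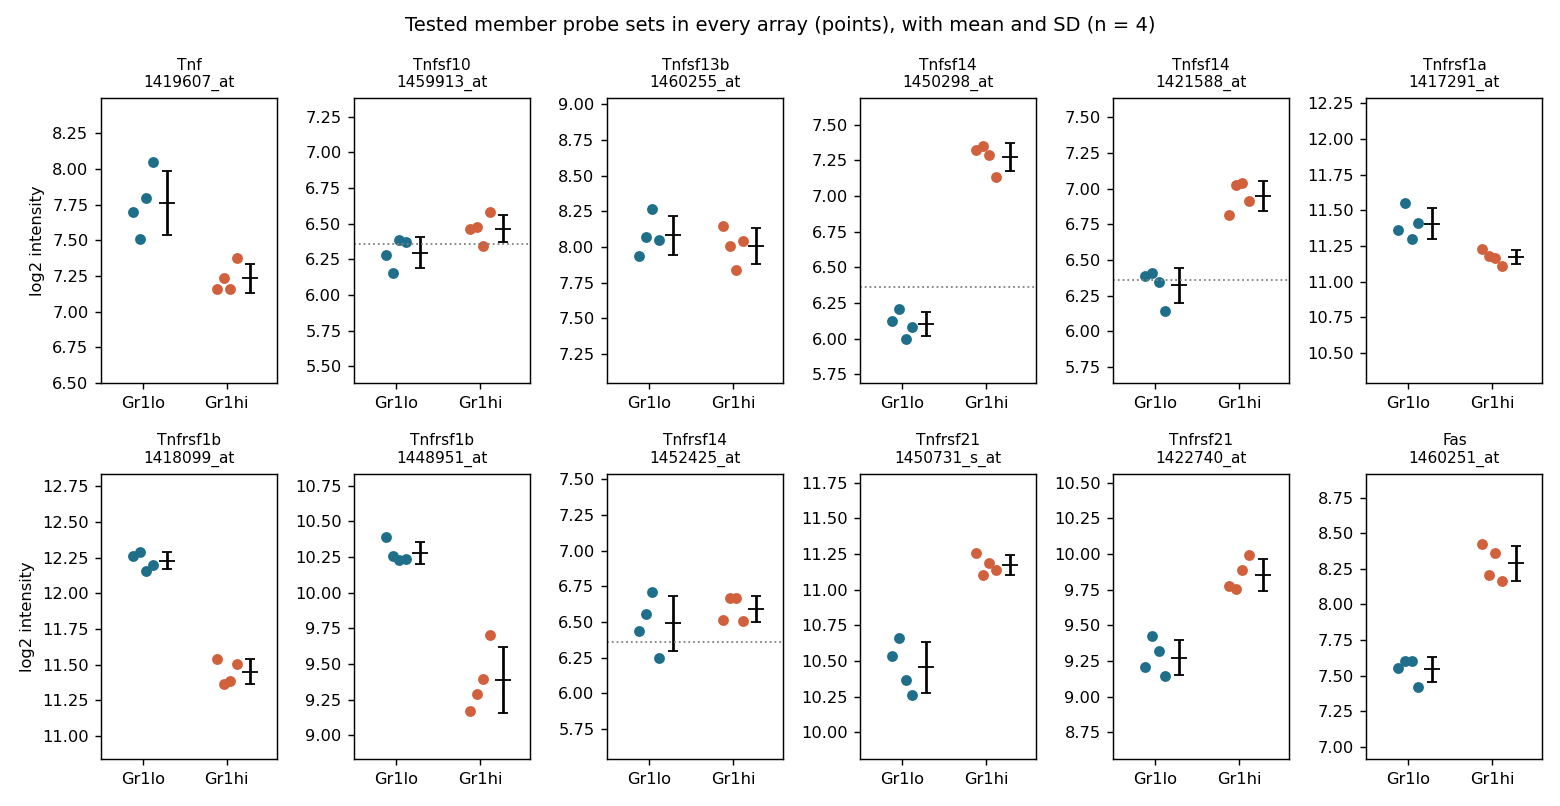
Each panel plots 1 of the 12 tested member probe sets, as log2 intensity on a vertical axis spanning the same width in every panel, with Gr1lo arrays at the left and Gr1hi arrays at the right. Points are arrays, black bars are the mean with SD (n = 4), and the dotted line, where in range, is the table median of 6.36. Both Tnfrsf1b panels show the Gr1lo arrays above all Gr1hi arrays, and both Tnfsf14 panels show them below.

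Among the receptors, the 2 TNF receptors were higher in Gr1lo cells, and Fas and Tnfrsf21 were higher in Gr1hi cells. Tnfrsf1b (TNFR2) is the TNF receptor without a death domain and prefers membrane-bound TNF. Its brighter probe set gave 4910, 5017, 4572 and 4706 in Gr1lo arrays, against 2981, 2640, 2681 and 2911 in Gr1hi arrays. No Gr1hi array came near the lowest Gr1lo array. The mean was 12.23 ± 0.06 in Gr1lo cells and 11.45 ± 0.09 in Gr1hi cells (log2, SD, n = 4 each), a difference of 0.78 (SE 0.07, limma adjusted p = 3.7e-06) or 1.71-fold. The second probe set gave 1345, 1227, 1203 and 1208 in Gr1lo arrays and 576, 626, 672 and 836 in Gr1hi arrays, a difference of 0.89 (SE 0.10, limma adjusted p = 4.5e-05).

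Tnfrsf1a (TNFR1) is the death domain receptor for TNF found on most cells. Its probe set gave 2630, 3008, 2517 and 2721 in Gr1lo arrays and 2406, 2326, 2295 and 2209 in Gr1hi arrays. The groups did not overlap, with the lowest Gr1lo array close above the highest Gr1hi array. The difference was 0.23 (SE 0.07, limma adjusted p = 0.023), or 1.18-fold. The call was lost without Gr1lo replicate 2 (0.18, adjusted p = 0.060), without Gr1lo replicate 4 (0.23, adjusted p = 0.053) and without Gr1hi replicate 4 (0.21, adjusted p = 0.061). The 95% interval of the Tnfrsf1a difference (0.08 to 0.38) lay below those of both Tnfrsf1b probe sets (0.63 to 0.92 and 0.66 to 1.12), and the difference between the receptors was not itself tested.

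Fas, the receptor for Fas ligand, starts caspase-dependent death. It gave 188, 195, 195 and 171 in the Gr1lo arrays, against 343, 295, 329 and 287 in the Gr1hi arrays. The groups stood well apart, at 7.55 ± 0.09 in Gr1lo cells and 8.29 ± 0.12 in Gr1hi cells (log2, SD, n = 4 each). The difference was -0.74 (SE 0.08, limma adjusted p = 1.7e-05), or 1.67-fold higher in Gr1hi cells. Both probe sets of its ligand Fasl were below the table median in every array of either subset and were not tested.

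Tnfrsf21 (death receptor 6) is a death domain receptor best known from neurons and lymphocytes. By its brighter probe set it gave 1484, 1615, 1321 and 1226 in Gr1lo arrays, against 2452, 2196, 2332 and 2254 in Gr1hi arrays. By the dimmer one it gave 591, 686, 639 and 565 in Gr1lo arrays and 876, 865, 950 and 1021 in Gr1hi arrays. Neither probe set showed any overlap. The differences were -0.72 (SE 0.09, limma adjusted p = 6.7e-05) and -0.58 (SE 0.08, limma adjusted p = 1.8e-04), the first being 1.64-fold higher in Gr1hi cells. The brighter probe set is of a class (_s_at) that can match several transcripts.

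Tnfrsf14 (HVEM) is the receptor for Tnfsf14 and a partner of the inhibitory receptor Btla. It gave 86.7, 94.2, 105 and 76.1 in Gr1lo arrays and 91.4, 102, 102 and 91.0 in Gr1hi arrays, close to the table median in both. The values overlap, and the difference was -0.10 (95% interval -0.31 to 0.11, limma adjusted p = 0.49). Its ligand Tnfsf14 was thus the side of this pair that was called.

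Tnfsf12 (TWEAK), the ligand of Tnfrsf12a, could only be read together with other genes. The brighter probe set, annotated jointly to Tnfsf12, Tnfsf13 and their fusion gene Tnfsfm13, gave 1300, 1361, 1299 and 1331 in Gr1lo arrays and 1754, 1663, 1692 and 1952 in Gr1hi arrays. The groups did not overlap, and the difference was -0.41 (SE 0.07, limma adjusted p = 5.2e-04). The dimmer one, annotated jointly to Tnfsf12 and Tnfsfm13, gave 291, 311, 213 and 290 in Gr1lo arrays and 406, 332, 355 and 328 in Gr1hi arrays, a difference of -0.37 (SE 0.12, limma adjusted p = 0.030). That second call was lost without Gr1hi replicate 1 (-0.31, adjusted p = 0.080), without Gr1hi replicate 3 (-0.37, adjusted p = 0.056), without Gr1lo replicate 3 (-0.25, adjusted p = 0.052) and without both arrays numbered 1 (-0.34, adjusted p = 0.094). Which of the joined genes carries the difference cannot be told apart on these probe sets.

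**Figure D2:**
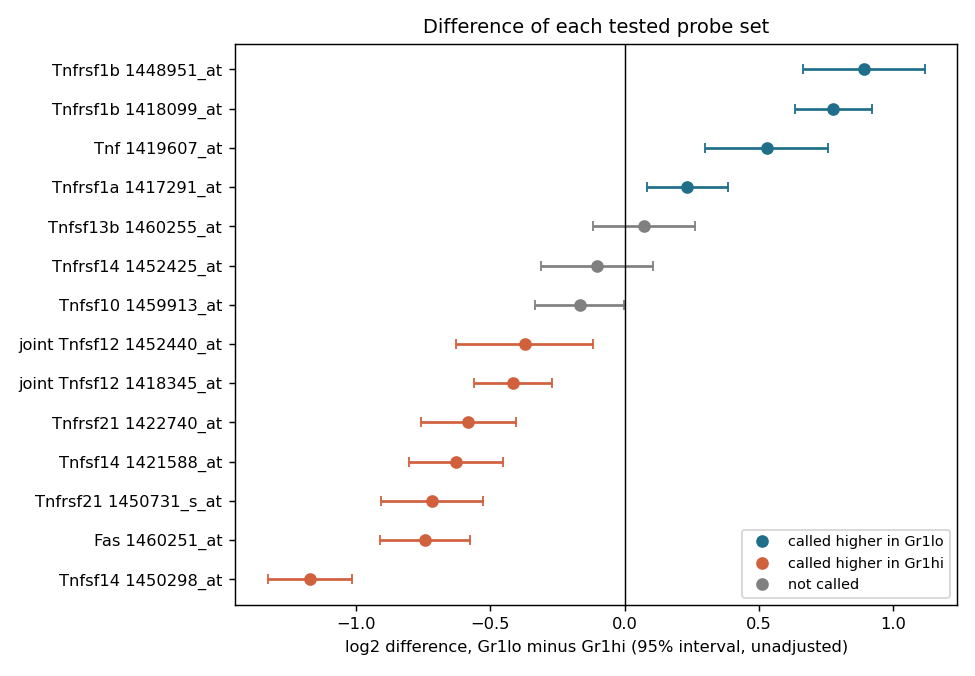
Points are the log2 difference, Gr1lo minus Gr1hi, of each tested member probe set and of the 2 probe sets that hold Tnfsf12 jointly, with 95% unadjusted intervals, ordered by size from the most positive at the top. Tnfrsf1b, Tnf and Tnfrsf1a lie to the right of 0, and Tnfsf14, Fas and Tnfrsf21 lie to the left.

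All 9 measured members had a probe set that passed the filter, as did 12 of their 16 probe sets. With 1 probe set per gene, 3 members were called higher in Gr1lo cells (Tnf, Tnfrsf1a and Tnfrsf1b), 3 were called higher in Gr1hi cells (Tnfsf14, Tnfrsf21 and Fas) and 3 were not called. Of 11546 tested genes, 14.1% were called higher in Gr1lo cells and 18.5% higher in Gr1hi cells. By probe set, 4 were called higher in Gr1lo cells and 5 higher in Gr1hi cells, against 15.2% and 15.9% of all tested probe sets (31.1% in either direction). The median difference was -0.10 over the 9 members and -0.01 over all tested genes. The groups did not overlap for 9 of the 12 tested member probe sets, against 31.8% of all tested probe sets. The first Tnfsf14 probe set, among these 9, passed the filter only through its Gr1hi arrays, so its groups could not overlap. It also stands for Tnfsf14 among the 3 members higher in Gr1hi cells. Both counts of 3 held without both arrays numbered 1, which carried the highest platelet, red cell, B cell and neutrophil marker levels of their group. The genes with 2 tested probe sets, Tnfsf14, Tnfrsf1b and Tnfrsf21, had both called in the same direction.

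In the rest of the superfamily, Ltb and Cd40 were the called genes among 16 tested, against 32.5% of all tested genes called in either direction. Of 13 other ligands, 4 were tested, and Ltb alone was called (higher in Gr1lo, median difference of the list 0.01). Ltb encodes lymphotoxin beta, the membrane anchor of the lymphotoxin trimer. It gave 1851, 1561, 2114 and 2017 in Gr1lo arrays, against 350, 239, 275 and 267 in Gr1hi arrays. Every Gr1lo array exceeded every Gr1hi array several times over, and the difference was 2.74 (SE 0.12, limma adjusted p = 2.8e-08) or 6.70-fold. Lymphocytes also express Ltb. None of 6 tested T cell markers was called in either direction, with the mean of the list from 7.02 to 7.21 in Gr1lo arrays and from 6.96 to 7.09 in Gr1hi arrays. Of 4 tested B cell markers, none was called higher in Gr1lo cells and 2 were higher in Gr1hi cells, with list means of 6.47 to 7.24 in Gr1lo arrays and 7.10 to 7.76 in Gr1hi arrays. Of 3 tested NK cell markers, 1 (Gzma, difference 0.71) was higher in Gr1lo cells, with list means of 7.49 to 7.84 in Gr1lo arrays and 7.07 to 7.40 in Gr1hi arrays, and Ncr1, Prf1, Eomes and Klra8 did not pass the filter. The NK list means did not overlap between the groups. The part of lymphocyte RNA in the Ltb result was not tested.

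Of 23 other receptors, 12 were tested, none was called higher in Gr1lo cells and 1 was called higher in Gr1hi cells, with a list median of 0.0044. Without Gr1lo replicate 4 or without Gr1hi replicate 4, 1 was called higher in Gr1lo cells. The called receptor was Cd40, the costimulatory receptor for T cell help, with 323, 260, 322 and 273 in Gr1lo arrays and 487, 399, 433 and 476 in Gr1hi arrays (difference -0.61, SE 0.09, limma adjusted p = 3.7e-04). All 3 of its tested probe sets were called in this direction. B cells also express Cd40, and the B cell markers Cd79a and Ms4a1 were called higher in Gr1hi cells too, by at least 1.47-fold and 1.85-fold, with Gr1lo means below the table median and overlapping values for both. Their part in the Cd40 result was not tested. The lymphotoxin beta receptor Ltbr, the other receptor of Tnfsf14, differed by -0.08 and was not called.

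Of 23 tested adaptors, kinases and ubiquitin ligases that act just inside the receptors, 7 were called higher in Gr1lo cells and 2 higher in Gr1hi cells, against 14.1% and 18.5% of all tested genes. The list's median difference was 0.03, and no test of the list was made. Traf1, an adaptor that is induced by NF-kB and binds Tnfrsf1b complexes, gave 373, 345, 272 and 266 in Gr1lo arrays and 144, 98.4, 89.9 and 90.2 in Gr1hi arrays. Its groups were far apart, with a difference of 1.59 (SE 0.16, limma adjusted p = 1.3e-05) or 3.00-fold, and its second probe set differed by 1.54. Map3k5 (ASK1), a kinase upstream of JNK and p38, differed by 0.58 (SE 0.07, limma adjusted p = 1.0e-04), and the inhibitory A20 partner Tnip1 by 0.48 (SE 0.07, limma adjusted p = 3.6e-04). In the other direction, the adaptor Traf5 differed by -0.60 (SE 0.07, limma adjusted p = 2.9e-05) and the kinase Map3k7 (TAK1) by -0.23 (SE 0.07, limma adjusted p = 0.026). The Map3k7 call was lost without Gr1lo replicate 1, Gr1lo replicate 4, Gr1hi replicate 1 or Gr1hi replicate 4 (adjusted p = 0.059 to 0.080) and without both arrays numbered 1 (adjusted p = 0.145), and its other 3 tested probe sets were not called. Tradd, the adaptor of Tnfrsf1a, differed by 0.03 and was not called (adjusted p = 0.84), while another of its 3 tested probe sets was called higher in Gr1lo cells (0.19, limma adjusted p = 0.038).

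Of 12 tested genes of the caspase and necroptosis arm, 2 were called higher in Gr1lo cells and 5 higher in Gr1hi cells, against 14.1% and 18.5% of all tested genes. The median difference was -0.12, and no test of the list was made. Mlkl, the pore-forming effector of necroptosis, gave 103, 101, 116 and 115 in Gr1lo arrays and 220, 251, 209 and 232 in Gr1hi arrays. These values did not overlap, and the difference of -1.07 (SE 0.08, limma adjusted p = 1.0e-06) was 2.10-fold. Daxx, a nuclear protein first described as a Fas binding partner, differed by -0.68 (SE 0.09, limma adjusted p = 1.0e-04), and the executioner caspase Casp6 by -0.55 (SE 0.07, limma adjusted p = 6.5e-05). Named after their values were seen, the other 2 were Casp8, the initiator caspase of death receptors (-0.51, SE 0.09, limma adjusted p = 0.0010), and its substrate Bid (-0.30, SE 0.09, limma adjusted p = 0.028). The Bid call was lost without Gr1lo replicate 1, Gr1lo replicate 4, Gr1hi replicate 2 or Gr1hi replicate 4 (adjusted p = 0.071 to 0.085) and without both arrays numbered 1 (adjusted p = 0.112), and 1 of its 3 tested probe sets was not called. Higher in Gr1lo cells were Ripk3, the kinase that activates Mlkl (0.45, SE 0.09, limma adjusted p = 0.0036), and Diablo, an antagonist of inhibitor of apoptosis proteins (0.39, SE 0.07, limma adjusted p = 0.0014), whose second tested probe set was not called. Ripk3 and Mlkl, successive steps of necroptosis, thus lay on opposite sides. Fadd, the adaptor between Fas and Casp8, differed by -0.0043 and Cflar, the inhibitor of Casp8, by 0.05, and neither was called.

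Neutrophils express Fas and Tnfsf14. Neutrophil markers were higher in Gr1hi cells for 3 of 7 tested genes and higher in Gr1lo cells for none, against 18.5% and 14.1% of all tested genes. The called genes were Mmp8, S100a8 and Csf3r, while S100a9, Ngp, Ltf and Camp were not called. Whether the RNA of the called genes came from neutrophils or from the monocytes themselves was not tested. The list's mean ran from 6.61 to 7.32 in Gr1lo arrays and from 7.79 to 8.45 in Gr1hi arrays (log2), while Mmp9 and Cxcr2 did not pass the filter. Much of that gap came from Mmp8, a neutrophil collagenase that was at least 16.5-fold higher in Gr1hi cells. Over the other 6 genes, a comparison chosen after seeing the data and with 4 genes not called, the means overlapped, from 6.68 to 7.48 in Gr1lo arrays and from 7.33 to 8.14 in Gr1hi arrays. That overlap came from Gr1lo replicate 1 alone, and the other Gr1lo arrays (6.676 to 6.825) lay below every Gr1hi array. The highest values of the list came from the arrays numbered 1 in each group, and S100a8 in these arrays was 7.46 in the Gr1lo one and 8.33 in the Gr1hi one. The part of neutrophil RNA in the differences of Fas, Tnfsf14 and the death arm was not tested. Leaving out both arrays numbered 1 kept the mean of the 6 markers other than Mmp8 higher in every Gr1hi array than in any Gr1lo array. It therefore cannot decide that part. Without both arrays numbered 1, Fas and Tnfsf14 kept their calls. The pathway lists described here then had 15 genes higher in Gr1lo cells and 10 higher in Gr1hi cells, against 15 and 16 with all arrays, as Map3k7, Bid, Rhbdf1, Mapkapk2, Tial1 and Icam1 lost theirs. Dendritic cell markers had 1 of 5 tested called higher in Gr1lo cells (Cd209a, 0.90) and 1 higher in Gr1hi cells.

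**Figure D3:**
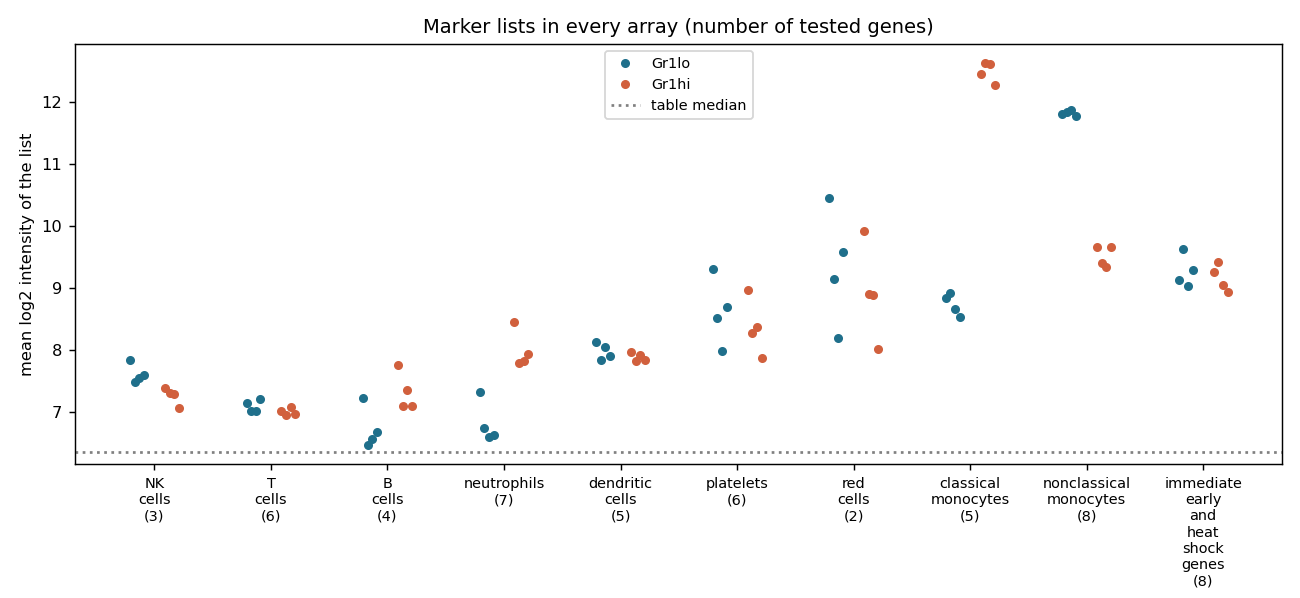
Points are the mean log2 intensity of the tested genes of each marker list in each array, Gr1lo to the left of Gr1hi, with the number of genes below each name and the table median as a dotted line. The classical and nonclassical monocyte lists separate the groups fully. The neutrophil list, Mmp8 included, is higher in Gr1hi arrays and the NK cell list in Gr1lo arrays, both without overlap. Platelet and red cell lists overlap.

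Genes that shed or process these proteins had 1 of 9 tested called higher in Gr1lo cells and 3 higher in Gr1hi cells. The shares of all tested genes were 14.1% and 18.5%, and the list's median difference was -0.10. The sheddase of TNF and its receptors, Adam17, differed by -0.16 and was not called (adjusted p = 0.13). Frmd8, which stabilises the Adam17 partner proteins at the cell surface, gave 1104, 1015, 982 and 1139 in Gr1lo arrays and 582, 575, 607 and 611 in Gr1hi arrays, a difference of 0.83 (SE 0.07, limma adjusted p = 2.3e-06). Higher in Gr1hi cells were progranulin, Grn, which is known to bind TNF receptors (-0.34, SE 0.06, limma adjusted p = 0.0010), the proprotein convertase Furin (-0.26, SE 0.06, limma adjusted p = 0.0083) and Rhbdf1 (at least 1.12-fold, limma adjusted p = 0.016), one of these Adam17 partners. Rhbdf1 lost its call without Gr1lo replicate 4 or Gr1hi replicate 2 (adjusted p = 0.053 and 0.052) or without both arrays numbered 1 (adjusted p = 0.064), and the Gr1lo mean of Rhbdf1 was below the table median.

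Of 12 tested regulators of Tnf mRNA, 2 were called in each direction, with a median of 0.05. Of all tested genes, 14.1% were called higher in Gr1lo cells and 18.5% higher in Gr1hi cells. Zfp36l1, a zinc finger protein that marks AU-rich mRNAs for decay, gave 1042, 948, 1013 and 858 in Gr1lo arrays and 278, 295, 250 and 213 in Gr1hi arrays. The groups were widely separated, with a difference of 1.90 (SE 0.10, limma adjusted p = 1.1e-07) or 3.74-fold. Its relative Zfp36 (tristetraprolin), the best known of these regulators for Tnf, differed by 0.08 and was not called (adjusted p = 0.73). The mRNA-binding protein Elavl1 differed by 0.28 (SE 0.09, limma adjusted p = 0.032), with overlapping groups. Of its other 2 tested probe sets, 1 was called higher in Gr1lo cells (0.44, limma adjusted p = 0.0016) and 1 lay on the other side and was not called (-0.24). Mapkapk2, the kinase that inhibits Zfp36, differed by -0.24 (SE 0.08, limma adjusted p = 0.029) and the translational repressor Tial1 by -0.21 (SE 0.07, limma adjusted p = 0.026). Elavl1 lost its call without Gr1lo replicates 2 or 4 or Gr1hi replicates 2, 3 or 4 (adjusted p = 0.056 to 0.092), Mapkapk2 without Gr1lo replicates 3 or 4 or Gr1hi replicates 1 or 4 (0.051 to 0.088), and Tial1 without Gr1lo replicates 1 or 3 or Gr1hi replicates 1 or 2 (0.055 to 0.071).

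Genes known to be induced by TNF were called in both directions. Of 11 tested, 2 were called higher in Gr1lo cells and 3 higher in Gr1hi cells, against 14.1% and 18.5% of all tested genes. The list's median difference was -0.18. Traf1, itself induced by NF-kB, and Tnfaip3 (A20) were counted with the adaptors and not here, and both were called higher in Gr1lo cells. Tnfaip3 differed by 0.34 (limma adjusted p = 0.013), and its second tested probe set was not called (0.20). The counts of this list depend on such placements. Nfkbia, the NF-kB inhibitor that NF-kB itself induces, gave 7761, 8817, 9981 and 9071 in Gr1lo arrays and 5217, 5765, 5721 and 7312 in Gr1hi arrays. Its difference was 0.58 (SE 0.11, limma adjusted p = 0.0015), and all 5 of its tested probe sets were called higher in Gr1lo cells. Nfkbie, a related inhibitor, differed by 0.31 (SE 0.10, limma adjusted p = 0.032). Tnfaip2, a TNF-induced gene of myeloid cells, gave 954, 993, 975 and 926 in Gr1lo arrays and 2405, 2446, 2594 and 2780 in Gr1hi arrays. The groups were far apart, at a difference of -1.41 (SE 0.07, limma adjusted p = 3.9e-08) or 2.65-fold higher in Gr1hi cells, and 1 of its 3 tested probe sets was not called. The chemokine Ccl2 was at least 1.22-fold higher in Gr1hi cells (limma adjusted p = 0.0032), having passed the filter through its Gr1hi arrays, and the adhesion molecule Icam1 differed by -0.28 (SE 0.08, limma adjusted p = 0.022). Nfkbie, with overlapping groups, lost its call without Gr1lo replicates 1, 2 or 3 or Gr1hi replicates 2, 3 or 4 (adjusted p = 0.070 to 0.094), and Icam1 lost its call without Gr1lo replicates 3 or 4 or Gr1hi replicates 1 or 2 (adjusted p = 0.056 to 0.070).

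**Figure D4:**
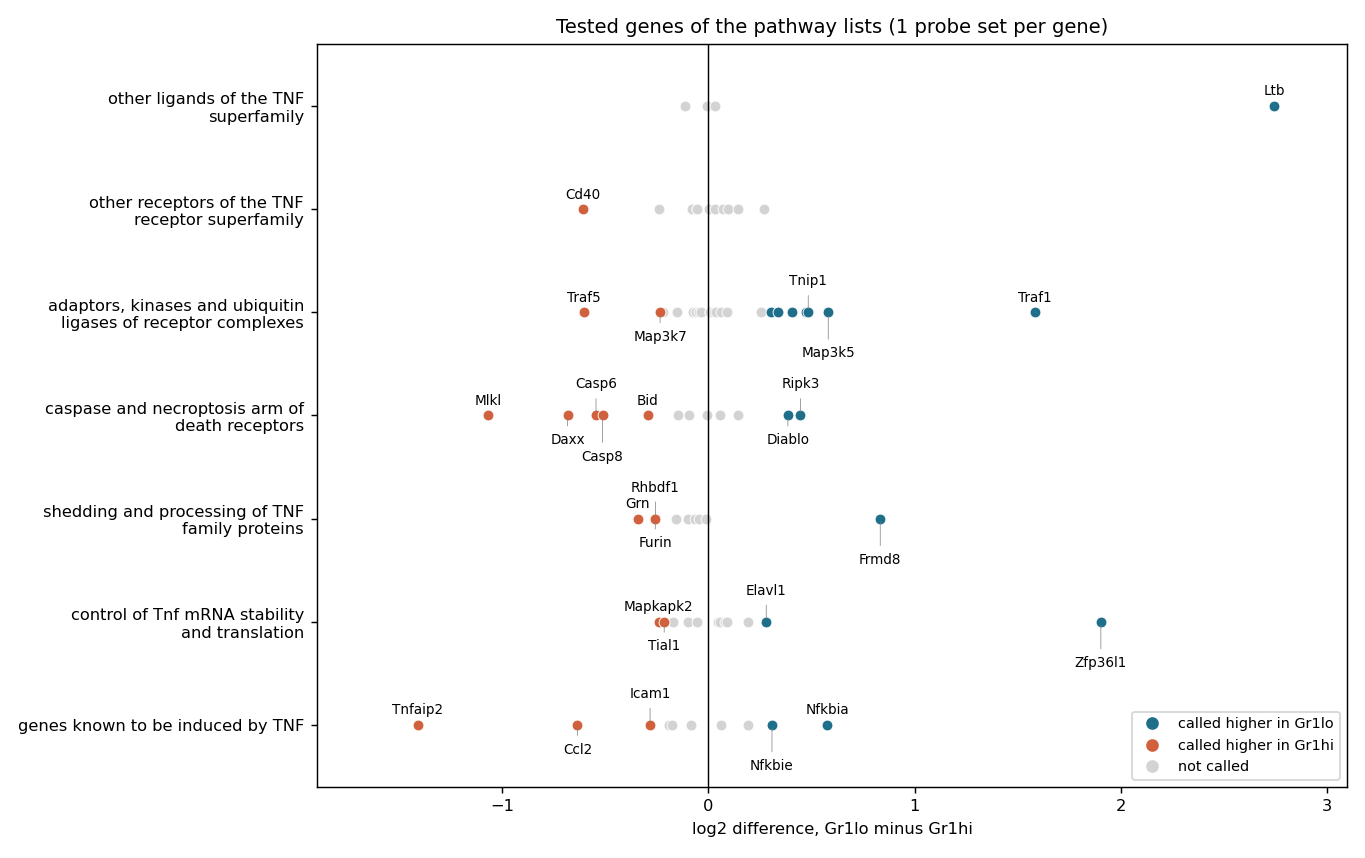
Each point is a tested gene of the 7 pathway lists, 1 probe set per gene, at its log2 difference, Gr1lo minus Gr1hi. Colours mark calls, and the called genes named above, other than Tnfaip3, are labelled. Ltb, Zfp36l1 and Traf1 lie farthest to the right, and Tnfaip2 and Mlkl farthest to the left.

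Over the 7 lists, 83 of 113 genes were tested, 15 were called higher in Gr1lo cells and 16 higher in Gr1hi cells (37.3%), against 32.5% of all tested genes in either direction. The median difference over the 83 genes was -0.0051. The genes around the members were therefore called about as often as genes in general, and the values above describe single genes.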

How the data were processed

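RNA of 4 Gr1lo and 4 Gr1hi monocyte samples was hybridised to 1 array each. The authors deposited linear intensities per probe set (lowest 8.64, highest 27145). GCRMA and MAS5 are named in the submitters' processing notes, with no version, role or order. Per the labels' protocols, in vitro transcription was prolonged, which can change measured ratios. Intensities were taken to log2 with no pseudocount. Of 45037 probe sets (64 array controls left out), 22831 lay over the table median (81.9, log2 6.36) in at least 4 of 8 arrays and were tested. Groups were compared by limma (version 3.58.1, R version 4.3.3), using lmFit and eBayes without a block. P-values are two-sided, and every tested probe set entered the Benjamini-Hochberg step. A gene stood by its tested probe set with 1 symbol and the highest mean. Symbols came from the platform annotation; 34945 probe sets had 1 symbol, 932 several and 9160 none, and 34741 were matched by Entrez identifier to RefSeq genes. Promoters came from RefSeq for 9 members.

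The members and the gene lists were chosen with earlier results of these data known. Named were all members, and in each pathway list up to 3 called genes with the largest difference in each direction. Uncalled genes, Casp8, Bid, Tnfaip3 and single genes of the marker lists were named after their values were seen. Replicates are separate sorts of pooled mice, so p-values measure the spread between sorts. The workflow was tested on simulated data, in which 50 of 22831 probe sets were changed at each of the sizes 0.25, 0.5, 1 and 2. It recovered 12% of log2 differences of 0.25, 66% of those of 0.5 and 98% of those of 1. Of its 149 calls, 11 were false. In the real data 31.1% of tested probe sets were called, and the Benjamini-Hochberg cutoff is less strict when more probe sets differ. The recovery rates therefore belong to the simulated setting and do not give the sensitivity of the real comparison. A gene that was not called may still differ by a small amount. Alternatives covered a replicate block, left-out arrays, filters, normalization, log offset, variance model, array weights, threshold and choice of probe set.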

Additional observations from a re-analysis of the deposited data

Results flagged for a closer look

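Traf5, the adaptor, had 1 array far from the others of its group. Gr1hi replicate 1 stood on the high side, with a gap to the nearest other array of 0.899 of the group's range on the log2 scale, over Dixon's 95% critical value for 4 samples. Traf5 gave 300.1 in that array and 269 to 272 in the other Gr1hi arrays, all above the Gr1lo arrays at 176 to 198. Of 86 groups of 4 examined, this was the only one, where chance sets apart about 1 in 20. None of the member probe sets was among them.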

How the results depend on the processing

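Of the 11 calls on member and joint probe sets, 9 held under all alternatives that tested them, and the exceptions were Tnfrsf1a (adjusted p from 0.0087 to 0.061) and the dimmer joint Tnfsf12 probe set (0.017 to 0.094). None of the calls reversed direction. Of 27 named list genes, Tnfaip3 not among them, 19 held under all alternatives. Leaving out single arrays or both numbered 1 gave 2 to 3 members higher in Gr1lo cells and 3 in Gr1hi cells, 13 to 15 and 10 to 17 pathway genes, and 2881 to 3486 and 2844 to 3536 probe sets. At a threshold of 0.01, 10 pathway genes were higher in Gr1hi cells, and 2290 probe sets were higher in Gr1lo cells, against 3472 at 0.05. Requiring signal over the median in 8 of 8 arrays left out Tnfsf14, by construction, and 2 members were then higher in Gr1hi cells. Fits with the replicate number as a block gave 3 and 3 members, 15 and 17 pathway genes, and 3547 and 3617 probe sets. Tial1 alone of these 27 genes lost its call (limma adjusted p = 0.054). Samples with the same number correlated at 0.273, 0.34, -0.0288 and -0.103 in their deviations from the group means, so the numbers were not taken as pairs. Samples with different numbers correlated from -0.414 to 0.554, the highest being Gr1lo replicate 3 with Gr1hi replicate 4. The next were Gr1lo replicate 4 with Gr1hi replicate 3 (0.295) and Gr1lo replicate 2 with Gr1hi replicate 1 (0.273). Whether arrays share a sort under other numbers was not tested, and the block on replicate number would not capture it. No setting moved the median difference of all probe sets beyond 0.0079. Member probe sets near the table median (Tnfsf10, Tnfrsf14, Tnfsf14 in Gr1lo cells) have little signal over background, as has Traf1 in Gr1hi replicates 2, 3 and 4.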
